A study of Mus musculus with 32 samples.

Results

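The response to lipopolysaccharide (LPS) was measured in BV-2 cells that carried the miRNA mimic miR-7a-5p. The comparison rests on 8 of the 32 RNA-seq libraries of the series, chosen by their labels alone: 4 libraries of LPS-treated cells with the mimic (LPS_miR-7a) and 4 libraries of vehicle-treated cells with the same mimic (VEH_miR-7a). All genes in the table, 45706 in number, entered the reading of the data. LPS was given at 10 ng/ml for 24 h. By their labels the cultures of both groups were wild-type BV-2 transfected with miR-7a-5p, so the groups differed in LPS alone. The share of cells that took up the mimic was not measured here. The other 24 libraries held a scramble control mimic, miR-29a-3p or miR-146a-5p, each with and without LPS, 4 libraries per group. The labels place the LPS treatment before the transfection, while the methods of the study read as transfection first, so the order of the steps was not settled here. The labels carry replicate numbers 1 to 4, with no statement of what a shared number means, and n in the study's assays on these cells stands for independent experiments. The model was a single immortalised mouse cell line, and the labels call it a glioblastoma line and also give it an age of mice.

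LPS is a component of the outer membrane of Gram-negative bacteria. It is sensed by the receptor TLR4 with its co-receptors CD14 and MD-2, and the signal runs through a MyD88 branch to NF-kB and through a TRIF branch to IRF3 and the type I interferons. Interferon then acts back on the cells through STAT proteins and IRF9, which switch on a large set of antiviral and antigen-presenting genes. Microglia, the macrophages of the brain, answer LPS with cytokines, acute phase proteins, nitric oxide and itaconate, and lower several genes of their resting and tissue-repair states. The miRNA miR-7a-5p binds messenger RNAs through its seed, the bases 2 to 8 of the mature strand, which pair with complementary sites that lie mostly in 3′ untranslated regions. BV-2 cells are a mouse line derived from microglia and widely used as a model of them.

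The mature strand of the mimic is shown because both groups carried it. RefSeq lists it at chr7:78888295-78888317 on the plus strand (Mir7-2) and at chr13:58392841-58392863 on the minus strand (Mir7-1), both on GRCm38.p6, with the same 23 bases. The seed is in capitals, and its complement in a messenger RNA reads GTCTTCC.
mmu-miR-7a-5p: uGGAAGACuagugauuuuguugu

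The cells expressed the markers of microglia and macrophages. Of 16 such markers, 13 lay above 10 CPM, counts in 1e+06 counts of the scaled library, and none was at 0 in all libraries. The 3 that did not were Cx3cr1, P2ry12 and Tmem119, the markers most particular to microglia, with mean levels of 2.38, 7.43 and 0.881 CPM in VEH and 0.519, 3.97 and 5.22 CPM in LPS, and Cx3cr1 could not be read with certainty. Aif1, counted among the 13, had a mean of 9.46 CPM in VEH, under that level, and 18.1 CPM in LPS. The summed level of all 16 was 4944 to 6651 CPM in the VEH libraries and 4636 to 6416 CPM in the LPS libraries. None of 11 astrocyte and glioma markers reached 10 CPM, and their sum stayed between 0 and 2.24 CPM. All 4 T and B lymphocyte markers were at 0, and the sums of the neuronal and endothelial markers stayed at or below 2.24 CPM. The sum of 4 oligodendrocyte markers ran from 1.496 to 16.4 CPM in VEH and from 3.34 to 5.23 CPM in LPS, with the defining gene Mog at 0 in all VEH libraries.

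The libraries of the 2 groups differed in depth and in RNA composition. VEH libraries 1 to 4 held 5293665, 1906028, 2540206 and 1240625 counts, and LPS libraries 1 to 4 held 7079169, 9090905, 11668187 and 11884696 counts, a ratio of the mean totals of 3.62. Genes for small structural RNAs (small nuclear, nucleolar, Cajal body, 7SK and signal recognition particle RNAs, and the like) took 6.12, 38.7, 33.9 and 36.1% of the VEH counts and 3.11, 2.96, 3.36 and 3.21% of the LPS counts. The 2 groups did not overlap, and the mean was lower in LPS by 25.5 percentage points (28.7 ± 15.2% in VEH against 3.16 ± 0.17% in LPS, SD, n = 4). The two-sided exact permutation test gave p = 0.0286, the smallest it can give at 4 against 4. The deposited values had lost their decimal marks, and the share of VEH library 1 depends on how these were restored: with a single set of library sizes it was 35.8%, the 4 VEH libraries then ran from 31.96 to 36.2%, and the difference of the means was 31.8 points. In the other 24 libraries the share ran from 2.87 to 18.7%. Since the share and the depth moved with LPS in these 8 libraries, the treatment cannot be told apart from the RNA composition of the VEH libraries, and its part in the results was not tested. A count of 0 in a VEH library allowed up to 0.567, 1.57, 1.18 and 2.42 CPM in libraries 1 to 4 of the unscaled totals (3 counts, counting error only).

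**Figure D1:**
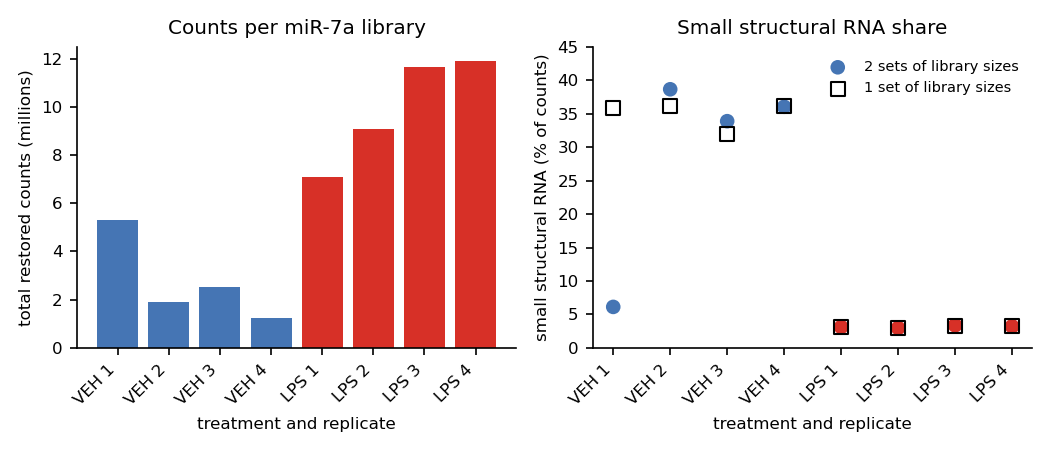
Total restored counts (left, axis in units of 1e+06, bars from 0) and the share of counts in small structural RNA genes in percent (right) for the 4 VEH (blue) and 4 LPS (red) libraries of miR-7a cells. Circles give the share with 2 sets of library sizes and open squares with 1 set; VEH library 1 reads 6.12% or 35.8%, and all LPS libraries lie near 3%.

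LPS changed 801 of 11554 genes tested, which is 6.93% (limma-voom, adjusted p under 0.05 and an absolute log2 fold change over 0.3). Of these 329 rose (2.85%) and 472 fell (4.09%). The unadjusted p was under 0.05 for 2363 genes. All 4 LPS libraries lay above all 4 VEH libraries for 816 genes (7.06%) and below them for 802 (6.94%). Among 10420 protein-coding genes, 301 rose and 429 fell. Among 37 structural RNA genes that could be read with certainty, 1 rose and 10 fell, with a median log2 fold change of −2.60. A fit blocked on the replicate number called 804 genes higher (6.96%) and 982 lower (8.5%). The filter on low counts kept genes that reached 1.62 CPM of the unscaled total in 4 of the 8 libraries, so a gene could pass through 1 group alone. Of the genes tested 1438 passed through LPS alone, of which 96 rose, and 53 through VEH alone, of which 17 fell. Of the 9708 that either group would have carried, 2.4% rose and 4.61% fell. Without VEH library 1 the counts were 231 higher and 537 lower, and leaving the structural genes out of the libraries left 816 calls. The count fell to 483 without VEH library 3 and to 532 without LPS library 2. Scaling to total counts with no correction for composition (no TMM) shifted the median gene up by 0.58 on the log2 scale and gave 3031 higher and 126 lower calls, so each direction is relative to the median gene under TMM scaling. Of 111 called genes that the naming rule selected and that were followed through the alternatives, 83 were also called in all 8 fits that leave out a library, and 14 of the other 28 lost their call without VEH library 1.

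**Figure D2:**
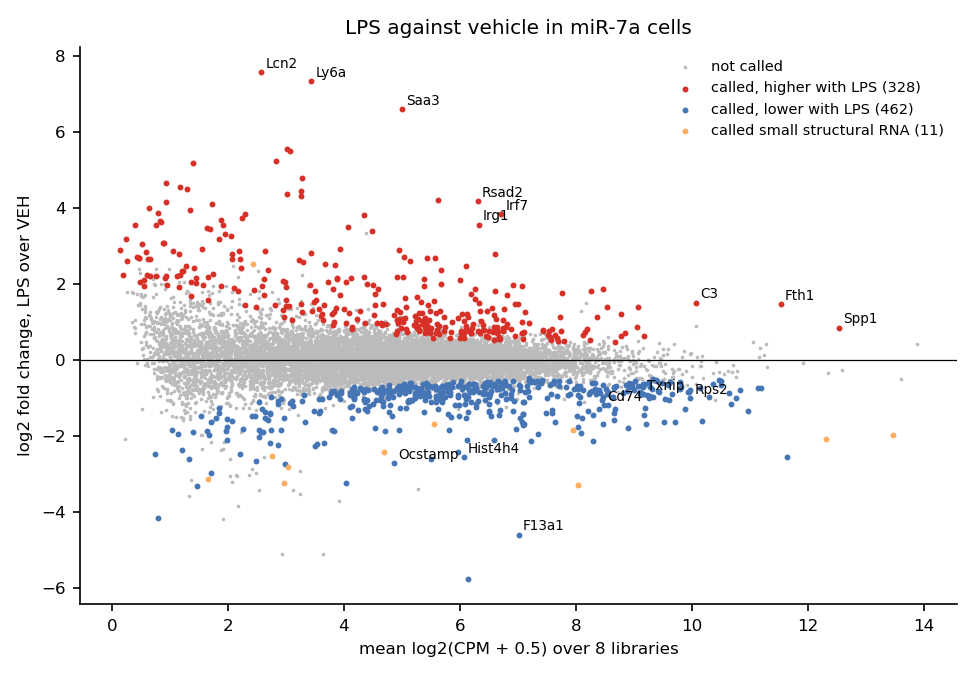
Log2 fold change of LPS over VEH against the mean log2(CPM + 0.5) over the 8 libraries of miR-7a cells, 1 point per tested gene. Red and blue points passed the test, orange points are called structural RNAs, and Lcn2, Ly6a and Saa3 sit at the top while F13a1 sits near the bottom.

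Among the genes with large rises that the naming rule selected were acute phase and antiviral genes. Lcn2 (chr2:32384633-32388252, GRCm38), lipocalin 2, an iron-siderophore binding protein, was read at 0.16, 0, 0 and 0 CPM in VEH libraries 1 to 4 and at 60.3, 61.4, 72.8 and 70.6 CPM in LPS. With 1 count in all VEH libraries against 3330 in LPS, the ratio of counts per TMM-scaled library total was 691 (95% counting interval 124 to 2.73e+04, adjusted p = 8.28e-07). Saa3 (chr7:46711998-46715700), a serum amyloid A protein made by macrophages, stood at 3.04, 4.49, 1.09 and 4.67 CPM in VEH and at 284, 248.8, 289 and 378 CPM in LPS. The lowest LPS library was far above the highest VEH library (log2 fold change 6.61, SE 0.43, adjusted p = 8.4e-07). Hp, haptoglobin, which binds free haemoglobin, was at 3.69, 0.748, 0 and 0 CPM in VEH and 13, 10.2, 10.4 and 19.1 CPM in LPS (log2 fold change 3.56, SE 0.70, adjusted p = 0.0065). Agt, angiotensinogen, moved the other way, from 7.05, 5.24, 5.98 and 12.8 CPM to 0.57, 1.28, 1.16 and 0.628 CPM (log2 fold change −2.98, SE 0.41, adjusted p = 0.00058). Of 17 acute phase genes in the list 6 were tested, of which 4 rose and 1 fell, against 2.85% and 4.09% of all genes. Of these 6, Lcn2, Saa3 and Hp passed the filter through LPS alone and Agt through VEH alone, so their calls follow in part from the filter, and of the 2 that either group would have carried Cp, which encodes the copper protein ceruloplasmin, rose (log2 fold change 1.17). The other, Slpi, did not pass the test (log2 fold change 2.24, adjusted p = 0.084). Ly6a, the surface antigen Sca-1, was not in any list and was at 0.801, 0, 1.63 and 0 CPM in VEH and at 85.0, 122, 173 and 148 CPM in LPS (log2 fold change 7.35, SE 0.71, adjusted p = 4e-05). Ly6a too passed the filter through LPS alone.

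The type I interferon response was the list with the most genes that rose. Of its 42 members 37 were tested, 34 rose and none fell, against 2.85% of all genes, with a median log2 fold change of 2.48. Of these 12 passed the filter through LPS alone, of which 10 rose, and of the other 25 members 24 rose (median 2.10), against 2.4% of all such genes. Without VEH library 1, 28 of the 37 rose and none fell, and with no TMM scaling 36 rose and none fell. The 3 tested members that were not called were Ifit1 (1.82), Mx2 (1.73) and Tor3a (−0.08), and Isg15, Oas1g, Ifitm3, Phf11b and Trim30a could not be read with certainty. Irf7 (chr7:141262706-141266481), the factor that amplifies interferon production, was at 19.2, 32.2, 24.5 and 50.2 CPM in VEH and at 291, 398, 477 and 323 CPM in LPS. The groups were far apart (log2 fold change 3.85, SE 0.26, adjusted p = 1.12e-06). Rsad2 (chr12:26442746-26456452), or viperin, an antiviral radical SAM enzyme, was at 15.2, 21.7, 16.9 and 23.4 CPM in VEH and at 325, 296, 540 and 203 CPM in LPS. LPS library 3 was the highest and library 4 the lowest, both well above every VEH library (log2 fold change 4.19, SE 0.36, adjusted p = 1.5e-05). Oasl2, of the 2′-5′-oligoadenylate synthetase family, rose from 9.77, 8.23, 15.8 and 12.8 CPM to 158, 188, 316 and 187 CPM (log2 fold change 4.22, SE 0.35). Phf11d rose from 12.2, 21.6, 19.3 and 19.4 CPM to 120, 93.9, 111 and 87.4 CPM (log2 fold change 2.69, SE 0.24). LPS library 3 was again the highest for Oasl2, and LPS library 1 for Phf11d.

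Further interferon genes were among the 12 largest rises under the naming rule (protein-coding, at least 10 CPM in the higher group, groups not overlapping). Zbp1, a sensor of Z-form nucleic acid that can start cell death, had 1 count in all VEH libraries against 654 in LPS, where it stood at 12.3, 9.40, 18.9 and 11.02 CPM (ratio per scaled total 136, 95% counting interval 24.3 to 5.37e+03). Ms4a4c had 3 counts in VEH and stood at 11.6, 5.47, 17.5 and 7.74 CPM in LPS (ratio per scaled total 36.9, interval 12.6 to 179). Ifit3, a protein that binds viral RNA complexes, was at 1.18, 1.496, 2.72 and 1.17 CPM in VEH and at 38.4, 36.7, 102 and 30.1 CPM in LPS (log2 fold change 4.79, SE 0.88). Its LPS library 3 stood apart from the other three, and Ifit3 shares sequence with its near copy Ifit3b, which was called as well (3.56). Ifi44 had 0, 4.49, 2.72 and 1.17 CPM in VEH and 33.5, 32.5, 54.0 and 22.3 CPM in LPS (log2 fold change 5.56, SE 0.98). Rtp4, a chaperone of receptors, went from 1.28, 1.496, 4.35 and 1.17 CPM to 45.4, 32.4, 50.1 and 30.8 CPM (log2 fold change 4.34, SE 0.52). Apol9a and Apol9b, a pair of near-identical genes between which reads can be split, had log2 fold changes of 4.37 (SE 0.63) and 5.26 (SE 0.99). Gm20388 was also named by the rule, at 46.0, 0, 0 and 0 CPM in VEH and 47.9 to 74.2 CPM in LPS. That entry spans many other genes on chr8, VEH library 1 differed from the other three, and its call was lost in 6 of 8 fits without a library. Zbp1, Ms4a4c, Ifit3, Ifi44, Rtp4, Apol9a, Apol9b and Gm20388 passed the filter through LPS alone, so their calls follow in part from the filter.

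The guanylate-binding proteins and immunity-related GTPases, interferon-induced enzymes that attack the vacuoles of intracellular microbes, had several members that rose. Of 19 listed genes 9 were tested and 8 rose. Of the 9, 5 passed the filter through LPS alone, so that their rise follows in part from the filter, and the other 4 all rose (median 2.12), against 2.4% of all such genes. The count of 8 fell to 4 of 9 without VEH library 1, and 8 members of this closely related family could not be read with certainty. Irgm1 was at 19.2, 22.4, 20.7 and 15.2 CPM in VEH and at 98.0, 81.7, 111 and 65.9 CPM in LPS (log2 fold change 2.15, SE 0.25, adjusted p = 0.00018). The groups were well separated, with LPS library 3 highest. Gbp9 was at 7.52, 7.35, 4.16 and 7.01 CPM in VEH and 38.9, 35.6, 34.03 and 19.4 CPM in LPS (log2 fold change 2.15, SE 0.39, adjusted p = 0.0043). Gbp6 was at 1.21, 6.99, 0 and 0 CPM in VEH and 63.0, 57.4, 64.4 and 32.1 CPM in LPS (log2 fold change 5.5, SE 0.79, adjusted p = 0.00073). Tgtp2, whose near copy Tgtp1 could not be read, had a log2 fold change of 3.45 (SE 0.73), and its adjusted p of 0.01 became 0.058 without VEH library 1. The member that was not called, Gvin1, was at 46.3 and 37.5 CPM in VEH libraries 1 and 2 and at 0 in the other VEH libraries.

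Among transcription factors of the IRF and STAT families, 6 of 20 tested members rose and none fell, against 2.85% and 4.09% of all genes. Of the 20, 2 passed the filter through LPS alone, of which 1 rose. Of the other 18 members 5 rose, against 2.4% of all such genes. Irf9, the DNA-binding subunit of the interferon-activated complex, was at 16.98, 20.2, 19.04 and 18.7 CPM in VEH and 51.3, 59.1, 62.8 and 53.5 CPM in LPS (log2 fold change 1.63, SE 0.20, adjusted p = 0.0002). Its partner Stat2 went from 27.7, 23.2, 24.5 and 28.03 CPM to 52.3, 71.7, 80.4 and 49.5 CPM (log2 fold change 1.24, SE 0.23). Irf7, Stat3 (0.86) and Batf2 (2.66) were called as well, while the median of the 20 members was 0.12.

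**Figure D3:**
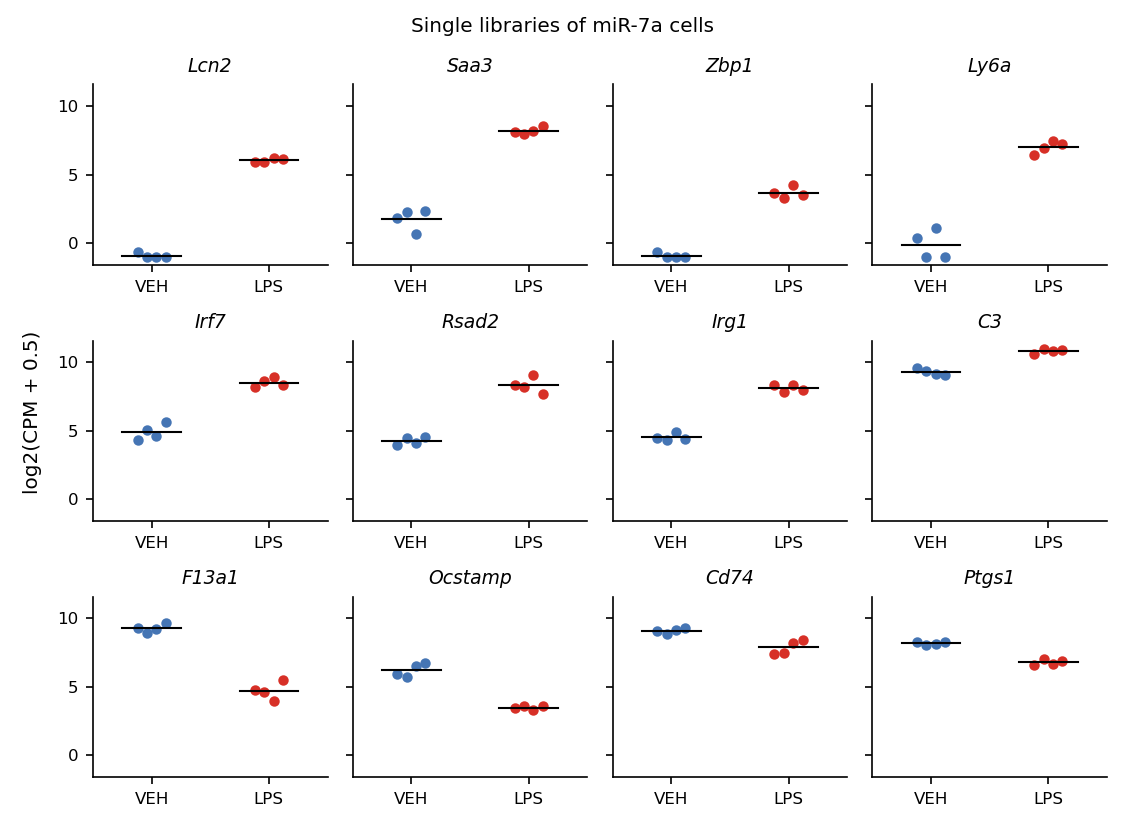
Each library of miR-7a cells as log2(CPM + 0.5) for 12 genes, VEH in blue and LPS in red, with a line at the mean of the 4 libraries. The groups do not overlap in any panel: 8 genes from Lcn2 to C3 are higher with LPS, and F13a1, Ocstamp, Cd74 and Ptgs1 are lower.

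The promoters of several of these genes are shown with the sequence element to which interferon-activated factors are known to bind. The motif searched was GAAA, any 2 bases and GAAA again, on both strands, with overlapping matches kept, and is called the GAAA pair. It was found in 3.99% of 27025 genes with a 300-base RefSeq window (250 bases before to 50 after the start, GRCm38.p6), in 3.75% of 8266 tested genes, in 18.3% of 235 genes that rose and in 2.92% of 308 that fell. In the interferon list 12 of 26 tested members with a window held it, and in the acute phase list 1 of 5, which was Saa3. A motif of the NF-kB kind, GGGA, any 2 bases and TTCC, was in 1.63% of all windows, in 4.26% of the windows of genes that rose and in 0.974% of those that fell. The matches are descriptions of letters and were not tested for binding. The 250 bases upstream of the start are printed from the coding strand, with the GAAA pair or its complement in capitals, for 3 interferon genes and for Saa3. Each of these holds the pair. Among other genes described here that rose, Irf7, Oasl2, Phf11d, Ifi44, Ms4a4c, Irf9, Lcn2 and Cp held none in their windows. Ifit3 (chr19:34583279-34583528, plus), Rsad2 (chr12:26456453-26456702, minus), Oas1a (chr5:120907526-120907775, minus) and Saa3 (chr7:46715677-46715926, minus) all rose. Oas1a, which makes the 2′-5′-linked activator of RNase L, was at 36.1, 38.5, 50.4 and 35.5 CPM in VEH and 129, 138, 174 and 102 CPM in LPS (log2 fold change 1.75, SE 0.21).
Ifit3: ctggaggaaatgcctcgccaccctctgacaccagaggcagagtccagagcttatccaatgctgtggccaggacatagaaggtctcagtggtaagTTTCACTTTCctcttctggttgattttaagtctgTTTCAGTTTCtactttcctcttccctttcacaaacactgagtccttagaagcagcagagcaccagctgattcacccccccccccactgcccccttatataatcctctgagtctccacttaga
Rsad2: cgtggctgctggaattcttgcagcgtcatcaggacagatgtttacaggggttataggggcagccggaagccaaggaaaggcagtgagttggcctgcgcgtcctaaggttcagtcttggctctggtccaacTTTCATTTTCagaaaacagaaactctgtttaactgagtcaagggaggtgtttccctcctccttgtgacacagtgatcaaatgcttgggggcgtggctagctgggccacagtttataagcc
Oas1a: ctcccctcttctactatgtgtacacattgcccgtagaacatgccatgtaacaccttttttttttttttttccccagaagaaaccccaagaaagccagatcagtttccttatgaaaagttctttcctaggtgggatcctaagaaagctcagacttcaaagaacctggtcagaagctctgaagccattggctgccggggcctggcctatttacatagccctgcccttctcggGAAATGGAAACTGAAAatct
Saa3: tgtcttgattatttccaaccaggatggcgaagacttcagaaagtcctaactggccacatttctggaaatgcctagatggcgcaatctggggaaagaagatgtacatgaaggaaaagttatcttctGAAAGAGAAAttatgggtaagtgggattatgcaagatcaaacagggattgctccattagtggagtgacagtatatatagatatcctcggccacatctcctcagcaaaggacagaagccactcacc

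Of 26 listed inflammatory cytokines and inflammasome genes 14 were tested, 5 rose and none fell, against 2.85% and 4.09% of all genes, and 12 were too low to test. Of the 14, 3 passed the filter through LPS alone, of which 1 rose, Il18bp. Of the other 11 members 4 rose, against 2.4% of all such genes. Il1rn, which encodes the interleukin 1 receptor antagonist, was at 20.8, 28.4, 11.97 and 14.02 CPM in VEH and 116, 119, 115 and 138 CPM in LPS. The 4 LPS values were close together and clear of VEH (log2 fold change 2.69, SE 0.23, adjusted p = 1.3e-05). Il1a, the agonist, went from 2.56, 7.48, 3.26 and 3.50 CPM to 33.2, 17.2, 19.2 and 19.2 CPM (log2 fold change 2.58, SE 0.44, adjusted p = 0.0028). Casp4, the caspase that binds cytosolic LPS, went from 13.5, 10.5, 16.3 and 8.18 CPM to 54.4, 40.4, 41.2 and 40.8 CPM (log2 fold change 1.75, SE 0.25, adjusted p = 0.00066). LPS library 1 was the highest for both. Il18bp, the decoy of interleukin 18, had a log2 fold change of 2.87 (SE 0.66, adjusted p = 0.017) that lost its call without VEH library 1 (adjusted p = 0.073). The fifth called member, Csf1, is described with the differences between mimics.

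The textbook early cytokines were not called. Il1b was at 1.12, 0.748, 2.18 and 0 CPM in VEH and 2.96, 2.39, 2.59 and 2.65 CPM in LPS (log2 fold change 1.17, SE 0.47, adjusted p = 0.17). All 8 values were under 3 CPM, and the 0 in VEH library 4, the shallowest library, does not show a level below those in LPS. Tnf was at 14.3, 8.23, 15.8 and 11.7 CPM in VEH and 15.1, 11.96, 16.3 and 15.8 CPM in LPS, and the groups overlapped (log2 fold change 0.15, SE 0.25, adjusted p = 0.79). Il6 had 1 count in all VEH and 1 in all LPS libraries and could not be tested. Nos2, the inducible nitric oxide synthase, could be read in more than a single way in some libraries and was left out of the tests. Its most probable readings were 0.801, 5.98, 4.35 and 22.2 CPM in VEH and 16.6, 27.9, 39.7 and 56.1 CPM in LPS, and the groups overlapped. Among 24 chemokine genes 8 were tested and 2 rose, against 2.85% of all genes. These were Cxcl14 (2.56, 5.98, 1.63 and 3.50 CPM in VEH, 11.2, 8.89, 12.1 and 8.09 CPM in LPS) and Ccrl2, a chemokine-binding receptor (5.77, 4.49, 2.72 and 5.84 CPM in VEH, 13.3, 11.02, 13.8 and 15.8 CPM in LPS). Their log2 fold changes were 1.72 (SE 0.40) and 1.43 (SE 0.33), and both calls were lost without VEH library 3. Of the 8 genes 4 passed the filter through LPS alone, Cxcl14 among them. With a replicate block 5 of the 8 rose, against 6.96% of all genes. Ccl5, Cxcl11 and Ccr2 could not be read with certainty.

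Few sensing and feedback genes of the TLR and NF-kB pathways passed the test. Of 29 tested members 2 rose, 2 fell and 25 were not called, against 2.85% higher and 4.09% lower over all genes, with a median log2 fold change of 0.14. Cish, a cytokine signalling inhibitor, went from 22.4, 21.7, 40.2 and 24.5 CPM to 5.70, 4.87, 8.44 and 9.84 CPM (log2 fold change −1.86, SE 0.28, adjusted p = 0.0011). Rel, the c-Rel subunit, went from 84.4, 95.7, 95.7 and 79.4 CPM to 64.5, 58.1, 50.6 and 56.2 CPM (log2 fold change −0.64, SE 0.15, adjusted p = 0.018). Both groups of values were clear of each other for Cish and Rel. Tnip1, which restrains NF-kB signalling, went from 73.7, 57.6, 48.4 and 61.9 CPM to 84.0, 110, 111 and 121 CPM (log2 fold change 0.77, SE 0.18, adjusted p = 0.02). The LPS co-receptor Cd14 was called at the edge (adjusted p = 0.047), from 14.9, 17.9, 15.8 and 29.2 CPM to 26.2, 29.3, 30.9 and 45.4 CPM, and its groups overlapped. The calls of Rel and Tnip1 were lost without VEH library 2, VEH library 3 or LPS library 3, and that of Cd14 in 6 of 8 fits without a library. Of 21 tested immediate early genes and MAP kinase phosphatases 1 rose and 1 fell, near the same shares of all genes. Egr2 went from 33.2, 29.2, 20.1 and 33.9 CPM to 11.8, 7.95, 11.6 and 9.70 CPM (log2 fold change −1.53, SE 0.23). The call of Fos, at or below 4.54 CPM in every library, was lost in all 8 fits without a library, and Fos passed the filter through LPS alone.

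Of 9 tested genes of nitric oxide, arginine and itaconate metabolism 1 rose and 2 fell, against 2.85% and 4.09% of all genes. Irg1 (chr14:103046977-103056573), also named Acod1, the enzyme that makes itaconate, was at 22.3, 19.4, 29.4 and 21.0 CPM in VEH and 321, 229, 320 and 247 CPM in LPS. It had the smallest adjusted p among the genes that rose (log2 fold change 3.57, SE 0.22, adjusted p = 5.9e-07). Slc7a2, an importer of arginine, went from 162, 165, 139 and 123 CPM to 89.4, 96.4, 69.0 and 73.8 CPM (log2 fold change −0.88, SE 0.16, adjusted p = 0.0043).

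The naming rule also selected genes with large falls. F13a1 (chr13:36867178-37050244), the coagulation factor XIII A chain, was at 641, 488, 606 and 827 CPM in VEH and 27.03, 24.01, 15.4 and 45.1 CPM in LPS. The highest LPS value was far under the lowest VEH value (log2 fold change −4.59, SE 0.26, adjusted p = 2.71e-07). Ocstamp, a protein needed for the fusion of osteoclasts and macrophages, went from 60.2, 52.4, 91.4 and 106 CPM to 10.4, 11.5, 9.53 and 11.7 CPM (log2 fold change −2.72, SE 0.22, adjusted p = 8.36e-06). S100a4, a calcium-binding protein, went from 125, 102, 129 and 78.3 CPM to 32.3, 10.8, 18.2 and 18.6 CPM (log2 fold change −2.61, SE 0.27). Lrrc17 went from 17.1, 76.3, 65.8 and 89.9 CPM to 10.6, 2.05, 6.06 and 3.00 CPM, with VEH library 1 lowest in VEH and LPS library 1 highest in LPS (log2 fold change −3.23, SE 0.57). Cytip, which binds cytohesin and regulates adhesion, went from 169, 218, 198 and 216 CPM to 52.8, 55.9, 29.5 and 50.8 CPM (log2 fold change −2.10, SE 0.20). Cbr2, Klhl30 and Asb10 were lower in LPS as well, by log2 fold changes of −2.27, −2.24 and −2.18, all at or below 34.8 CPM.

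Of 19 tested genes of class I presentation, which shows peptides of the cell's own proteins, 7 rose and none fell, against 2.85% and 4.09% of all genes (median 0.64). Of the 19, 1 passed the filter through LPS alone and rose. Of the other 18 members 6 rose, against 2.4% of all such genes. H2-D1 was at 311, 321, 279 and 440 CPM in VEH and 649, 892, 955 and 998.9 CPM in LPS (log2 fold change 1.39, SE 0.17, adjusted p = 0.00023). Tap1, a subunit of the peptide transporter, went from 43.2, 53.1, 44.1 and 53.7 CPM to 99.1, 147, 166 and 128 CPM (log2 fold change 1.51, SE 0.20). H2-T23 and H2-K1 had log2 fold changes of 1.82 (SE 0.23) and 1.12 (SE 0.20), and none of these 4 genes overlapped between groups. The class I genes resemble each other closely, so reads may have been split between them. In class II presentation and costimulation 2 of 8 tested members rose and 2 fell, the difference from class I was not tested, and H2-Aa, H2-Ab1 and H2-Eb1 were too low to test. Cd74, the invariant chain of class II molecules, went from 525, 455, 564 and 619 CPM to 170, 181, 294 and 338 CPM (log2 fold change −1.18, SE 0.21, adjusted p = 0.0035). Cd83, which stabilises class II molecules on the surface, went from 257, 170, 290 and 181 CPM to 91.6, 86.1, 77.2 and 82.1 CPM (log2 fold change −1.42, SE 0.17). The costimulator Cd86 went from 52.1, 55.4, 44.1 and 50.2 CPM to 113, 83.0, 102 and 74.5 CPM (log2 fold change 0.86, SE 0.19, call lost without VEH library 3). Cd274, the inhibitory ligand PD-L1, had a log2 fold change of 1.28, its groups overlapped, and its call was lost without VEH library 1.

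Complement and lipid mediators held changes of both signs. C3 (chr17:57203970-57228136), the central complement protein, was at 781, 653, 578 and 534 CPM in VEH and 1586, 2032, 1807 and 1882 CPM in LPS (log2 fold change 1.52, SE 0.14, adjusted p = 3.9e-05). C1ra, a protease of the classical pathway, went from 5.29, 7.48, 7.62 and 10.5 CPM to 21.0, 29.9, 21.5 and 26.0 CPM (log2 fold change 1.87, SE 0.30). Itgax, the integrin CD11c and a subunit of complement receptor 4, fell (log2 fold change −1.32, SE 0.18). In all, 4 of 13 tested complement genes rose and 2 fell, against 2.85% and 4.09% of all genes. Of the 4 that rose 1 passed the filter through LPS alone. Of 12 tested genes of prostaglandin and lipid mediator synthesis 1 rose and 2 fell. Ptgs1, cyclooxygenase 1, went from 302, 259, 285 and 304 CPM to 96.4, 128, 103 and 116 CPM (log2 fold change −1.39, SE 0.14, adjusted p = 5.5e-05). Ltc4s, which makes leukotriene C4, had a log2 fold change of −1.52 (SE 0.37), and Ptges, prostaglandin E synthase, of 2.05 (SE 0.50) at no more than 2.72 CPM. The calls of Ltc4s and Ptges were lost in 3 and 6 of 8 fits without a library, and Ptges passed the filter through LPS alone.

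Phagocytic receptors, the machinery closest to the study's question of what miRNAs do to phagocytosis, went both ways. Of 26 tested receptors and bridging proteins 6 rose and 7 fell, against 2.85% and 4.09% of all genes, with a median log2 fold change of 0.09. Of the 26, 3 passed the filter through LPS alone, of which 1 rose. Axl, a receptor for apoptotic cells, went from 5.61, 11.97, 2.72 and 12.8 CPM to 52.8, 84.9, 69.4 and 62.8 CPM (log2 fold change 3.42, SE 0.37, adjusted p = 0.0001). Clec4e, the glycolipid receptor Mincle, went from 14.9, 14.2, 12.5 and 12.8 CPM to 111, 72.4, 64.3 and 113 CPM (log2 fold change 2.62, SE 0.31). Fcgr1, the high-affinity receptor of immunoglobulin G, went from 45.02, 34.4, 52.8 and 40.9 CPM to 113, 118, 172 and 140 CPM (log2 fold change 1.61, SE 0.20). The mannose receptor Mrc1 went the other way, from 263, 254, 222 and 152 CPM to 94.3, 90.9, 76.0 and 77.2 CPM (log2 fold change −1.42, SE 0.17). Trem2, the lipid receptor linked to Alzheimer's disease risk, went from 212, 254, 289 and 282 CPM to 91.2, 133, 150 and 138 CPM (log2 fold change −1.01, SE 0.17, adjusted p = 0.0029).

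The study drew up a list of 28 targets of its 3 miRNAs with a role in phagocytosis, so its direction is not independent of the study. Of these 2 genes rose and 2 fell, near the 2.85% and 4.09% of all genes, with a median of 0.09. Ppt1, a lysosomal thioesterase, went from 72.4, 70.3, 76.7 and 95.8 CPM to 128, 123, 115 and 139 CPM (log2 fold change 0.72, SE 0.15). Npc2, a lysosomal cholesterol carrier, went from 464, 451, 411 and 540 CPM to 613, 654, 761 and 857 CPM (log2 fold change 0.63, SE 0.14). Arsb, a sulfatase, went from 237, 298, 295 and 417 CPM to 114, 104, 116 and 153 CPM (log2 fold change −1.31, SE 0.18, adjusted p = 0.00049). Man2b1, a mannosidase, had a log2 fold change of −0.69 (SE 0.16). The calls of Npc2 and Man2b1 were each lost without VEH library 3. Of 38 tested cathepsin and lysosome genes 1 rose and 3 fell (median 0.09), against 2.85% and 4.09% of all genes, with Ctsf at 121, 107, 112 and 110 CPM in VEH and 37.2, 45.8, 42.8 and 49.96 CPM in LPS (log2 fold change −1.37, SE 0.15). The call of Glb1, which also fell, was lost in 7 of 8 fits without a library, and with no TMM scaling its value was positive. The pro-inflammatory list of 30 microglial genes, also drawn up in the study, had 22 tested members, of which 6 rose and 2 fell (median 0.23), against the same shares of all genes. Of the 22, 5 passed the filter through LPS alone, of which 2 rose. Of the other 17 members 4 rose, against 2.4% of all such genes. Cybb, the catalytic subunit of the phagocyte oxidase, went from 231, 214, 206 and 273 CPM to 637, 603, 486 and 705 CPM (log2 fold change 1.40, SE 0.15, adjusted p = 0.0001). App, the amyloid precursor protein, went from 234, 229, 188 and 234 CPM to 359, 386, 337 and 397 CPM (log2 fold change 0.75, SE 0.13, adjusted p = 0.0037). Nlrp1b, an inflammasome sensor, fell (log2 fold change −1.39, SE 0.23).

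Among 16 tested homeostatic genes of microglia 1 rose, 3 fell and 12 were not called, against 2.85% higher and 4.09% lower over all genes (median −0.27, and 0.32 with no TMM scaling). Cst3, cystatin C, went from 688, 624, 637 and 620 CPM to 387, 348, 390 and 455 CPM (log2 fold change −0.71, SE 0.13, adjusted p = 0.0037). The member that rose, Tmem119, was at or below 6.47 CPM in all libraries and lost its call in 4 of 8 fits without a library. It passed the filter through LPS alone. Among 27 tested genes of the disease-associated state 5 rose and 7 fell, against the same shares (median −0.12, and 0.48 with no TMM scaling). Fth1, the ferritin heavy chain, which stores iron, went from 2324, 1996, 1169 and 1823 CPM to 5857, 4862, 4201 and 4870 CPM (log2 fold change 1.47, SE 0.19, adjusted p = 0.00029). Igf1, insulin-like growth factor 1, went from 390, 450, 428 and 304 CPM to 197, 165, 161 and 199 CPM (log2 fold change −1.13, SE 0.15). Axl, Itgax and Trem2, described above, belong to this list as well.

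Many cytosolic ribosomal protein genes and mitochondrially encoded genes fell relative to the median gene, while most nuclear-encoded genes of energy metabolism were not called. Of 72 tested cytosolic ribosomal protein genes 48 fell and none rose, against 4.09% of all genes, with a median of −0.73. Without VEH library 1, 38 fell, and with no TMM scaling 4 fell with a median of −0.10, where the median gene was at 0.59. Rps2 was at 1365, 1368, 1534 and 1410 CPM in VEH and 736, 666, 751 and 697 CPM in LPS (log2 fold change −0.99, SE 0.12, adjusted p = 0.00018). Rps10, Rps15 and Rpl36 had log2 fold changes of −1.05, −1.26 and −1.44, and none of these 4 genes overlapped between groups. Of 14 tested mitochondrially encoded genes 11 fell and none rose (median −1.40, and −0.84 with no TMM scaling). mt-Nd5, a subunit of complex I, was at 1780, 2685, 1835 and 1834 CPM in VEH and 1222, 473, 528 and 615 CPM in LPS (log2 fold change −1.61, SE 0.25, adjusted p = 0.0013). LPS library 1 was the highest LPS library for mt-Nd5, and also for mt-Cytb, mt-Nd2 and mt-Nd1. All 4 LPS libraries lay below all 4 VEH libraries for only 5 of the 14 genes, and mt-Nd1 was among those whose groups overlapped. Nuclear-encoded genes of oxidative phosphorylation had 9 of 49 members lower and none higher, against 4.09% of all genes lower (median −0.44). Cox8a went from 228, 239, 381 and 319 CPM to 145, 106, 173 and 167 CPM (log2 fold change −0.96, SE 0.20). In glycolysis 6 of 24 members fell and none rose (median −0.31). Gapdh, often used as a reference gene, went from 1884, 1925, 3054 and 3174 CPM to 1253, 1182, 1092 and 1389 CPM (log2 fold change −0.99, SE 0.18, adjusted p = 0.004), and Ldha had a log2 fold change of −0.64 (SE 0.12). Of 26 cholesterol synthesis genes 2, Stard4 and Sc5d, fell, against the same share (median −0.45), and without VEH library 1 none was called. With a replicate block 18 genes of oxidative phosphorylation, 9 of glycolysis and 7 of cholesterol synthesis fell, against 8.5% of all genes. With no TMM scaling the medians of oxidative phosphorylation, glycolysis and cholesterol synthesis were positive (0.15, 0.30 and 0.21).

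**Figure D4:**
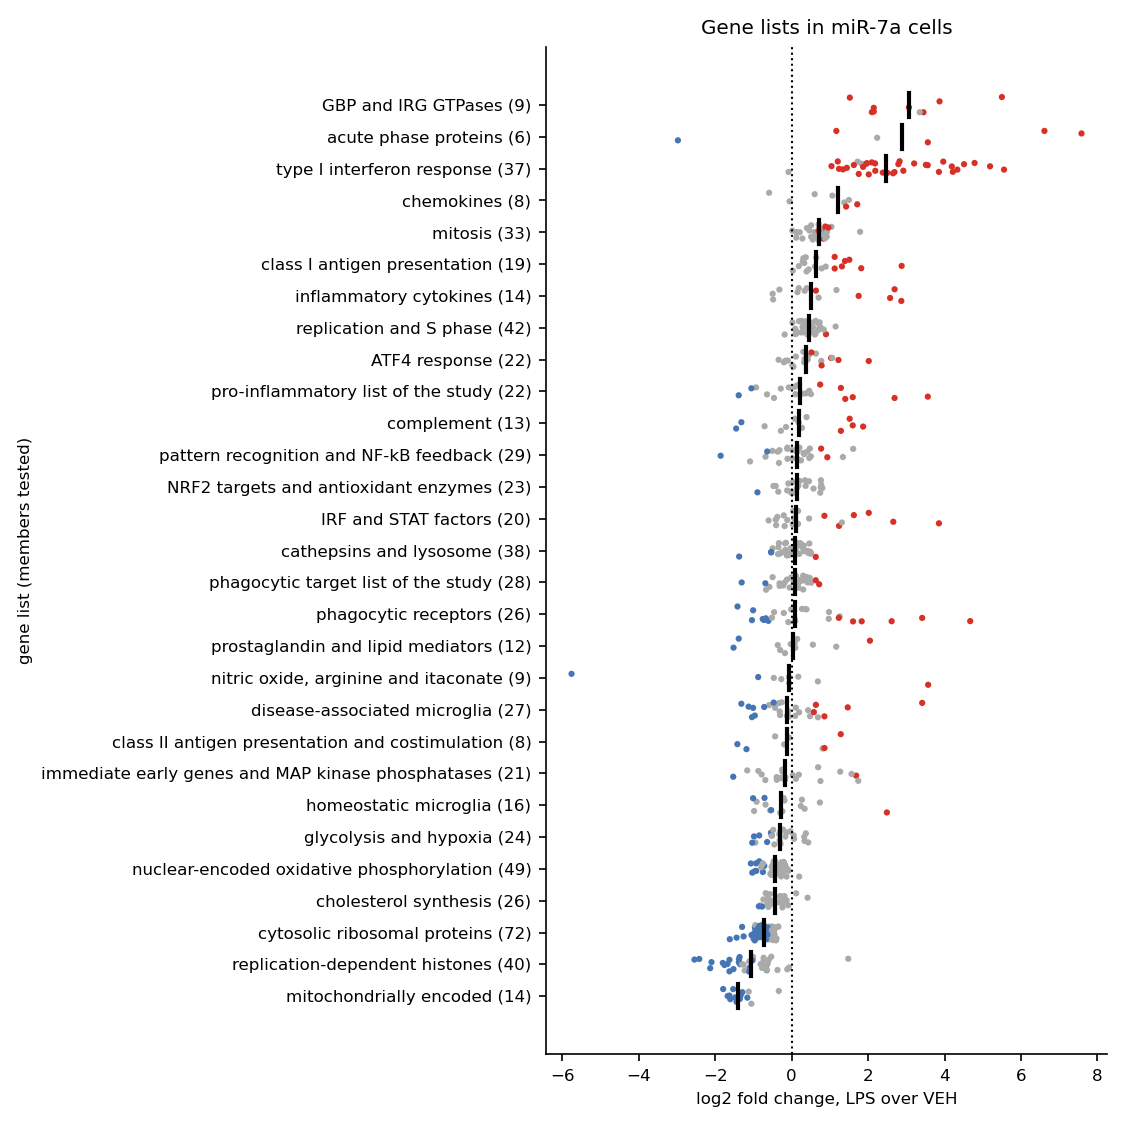
Log2 fold change of LPS over VEH for every tested member of the 29 gene lists, ordered by list median, with the number tested in brackets. Red and blue dots were called higher and lower, grey dots were not called, black bars are list medians and the dotted line is the median of all genes; with no TMM scaling all values lie about 0.58 higher, and the list medians of oxidative phosphorylation, glycolysis, cholesterol synthesis and others then turn positive.

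Of 33 tested mitosis genes 6 rose and none fell, against 2.85% and 4.09% of all genes (median 0.71). Of 42 replication genes 1, Pole, rose, near the share of all genes (median 0.46). With a replicate block 24 mitosis and 20 replication genes rose, against 6.96% of all genes. Tpx2, a spindle assembly factor, went from 90.7, 79.3, 90.3 and 58.4 CPM to 184, 145, 157 and 158 CPM (log2 fold change 0.96, SE 0.16, adjusted p = 0.0025). Plk1, a mitotic kinase, went from 46.9, 41.1, 40.2 and 25.7 CPM to 69.4, 86.5, 78.6 and 69.1 CPM (log2 fold change 0.88, SE 0.19). The calls of Pole and of Aurka (0.86) were each lost in 6 of 8 fits without a library, and that of Top2a (0.83) without VEH library 3. Replication-dependent histones, whose messenger RNAs end in a stem-loop instead of a poly(A) tail, had 20 of 40 tested members lower and none higher (median −1.06, and −0.46 with no TMM scaling). Hist1h2ap was at 110, 231, 152 and 120 CPM in VEH and 53.8, 60.5, 68.3 and 44.0 CPM in LPS (log2 fold change −1.36, SE 0.22). Hist4h4 was at 62.2, 294, 253 and 166 CPM in VEH and 28.97, 25.7, 35.7 and 18.4 CPM in LPS (log2 fold change −2.54, SE 0.40), and Hist1h4b at 57.3, 272, 139 and 242 CPM and 25.4, 23.9, 33.7 and 19.3 CPM (log2 fold change −2.42, SE 0.39). VEH library 1 was the lowest VEH library for all these histone genes, as it was for the structural RNA share. Without it 26 of the 40 histone genes fell, and with a replicate block 36. The part of the structural share in the histone values was not tested, and the H4 genes are near-identical copies, of which several could not be read with certainty.

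The ATF4 response to amino acid shortage and other stress had 5 of 22 tested members higher and none lower, against 2.85% and 4.09% of all genes (median 0.38). Mthfd2, an enzyme of mitochondrial folate metabolism, went from 34.9, 30.7, 22.9 and 14.02 CPM to 71.0, 50.7, 61.7 and 49.8 CPM (log2 fold change 1.03, SE 0.24). Ddit3, the stress factor CHOP, went from 6.57, 8.97, 14.7 and 18.7 CPM to 27.4, 20.4, 60.2 and 56.8 CPM (log2 fold change 2.02, SE 0.51). Trib3 and Aars had log2 fold changes of 1.23 and 0.78. All 4 calls were lost in at least 1 fit without a library: Mthfd2 without VEH library 3, Ddit3 without VEH library 1 or 2, Trib3 in 6 fits and Aars in 5. Among 23 tested NRF2 targets and antioxidant genes none rose, and Txnip fell. With a replicate block 3 of them rose and 2 fell, against 6.96% and 8.5% of all genes.

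Since both groups carried miR-7a-5p, genes with sites for its seed were described for their LPS response. Of 435 tested protein-coding genes whose longest 3′ UTR held an 8-mer site (GTCTTCCA), 11 rose and 4 fell, 3.45% in all, with a median log2 fold change of 0.06. Of 1473 genes with a 7-mer or 8-mer site 39 rose and 32 fell, 4.82% in all, with a median of 0.05. Of 8903 genes without a 7-mer site 262 rose and 384 fell, 7.26% in all, with a median of 0.02. The medians of these groups in scramble cells were 0.01, 0.04 and 0.00, each within 0.1 of a log2 unit of 0.

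The LPS response with miR-7a was next set beside that with the scramble mimic, which shares no library with it. The restoration of lost decimals read each value in part from the other mimic groups of the same treatment. The responses are therefore not fully independent, and the part of the restoration in their likeness or difference was not tested. In scramble cells 1150 of 12174 tested genes rose (9.45%) and 1082 fell (8.89%). Over 11284 genes tested in both, the correlation of the 2 sets of log2 fold changes across genes was r = 0.743. Of 776 genes called in miR-7a cells and tested in scramble cells, 763 had the same sign and 565 were called in the same direction, which is a share of those 776 and of the 2082 called in scramble among the shared genes. The median SE was 0.23 in miR-7a and 0.20 in scramble cells. The interferon list had medians of 2.48 and 2.19 in the 2 settings, ribosomal proteins −0.73 and −0.71, and mitosis 0.71 and 1.49. Mitochondrially encoded genes had medians of −1.40 and −0.44 and histones −1.06 and −0.22. The differences between these medians were not tested.

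The test of the difference itself gave a count that depended on the libraries and on the restoration of the values. In the interaction of LPS with miR-7a against scramble, 1 of 11859 genes passed (0.00843%), and 634 had an unadjusted p under 0.05. With the replicate number as a block the count was 32, 16 in each direction. That gene was Txnip (chr3:96557957-96561883), which encodes thioredoxin-interacting protein, an inhibitor of thioredoxin and of glucose uptake. In miR-7a cells alone it was at 708, 781, 768 and 874 CPM in VEH and 406, 414, 410 and 441 CPM in LPS, tight in both groups, and fell by 0.90 on the log2 scale (SE 0.12, adjusted p = 0.00046). On the scale of all 32 libraries, the fall with the scramble mimic was from 1089, 925, 950 and 670 CPM to 115, 75.7, 96.7 and 74.1 CPM, against 777, 836, 837 and 953 CPM to 451, 461, 454 and 488 CPM with miR-7a. The VEH levels of the 2 mimics overlapped, while the LPS levels did not, and the LPS to VEH ratios were 0.10 and 0.54. The difference of the LPS effects was 2.49 on the log2 scale (SE 0.22, adjusted p = 9.2e-06). With miR-29a the ratio was 0.16 and with miR-146a 0.16. The longest 3′ UTR of Txnip, 1354 bases, held no match to the seed site of miR-7a-5p. Earlier versions of the restoration of lost decimals gave more calls in this interaction. The count was 121 without VEH_miR-7a library 1, of which 106 were more negative with miR-7a, and 4 without LPS_miR-7a library 1.

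Against the mean of the other 3 mimics, the interaction called 19 of 11811 genes (0.161%), 14 with a higher and 5 with a lower LPS effect in miR-7a cells. With a replicate block the count was 133, 75 higher and 58 lower. The 14 were Angptl2, Csf1, Txnip, Slc37a2, Cd93, Ccnd2, Cd300a, Mgll, Myom3, Cd86, Anpep, H2-D1, Ace and C130026I21Rik, and the 5 were Cdc42ep2, Hist1h4a, Hist1h2bk, Hist1h3g and Hist1h2af. The count was 162 without VEH_miR-7a library 1, with 133 lower, and ranged from 3 to 11 without VEH libraries 2, 3 or 4 or LPS libraries 2, 3 or 4. The values that follow are on the scale of all 32 libraries. Csf1, the growth factor of microglia that acts through CSF1R, was at 405, 306, 369 and 461 CPM in VEH and 461, 625, 657 and 691 CPM in LPS with miR-7a. Its ratio of LPS to VEH was 1.58 with miR-7a and 0.79, 0.69 and 0.77 with scramble, miR-29a and miR-146a (difference 1.06, SE 0.18, adjusted p = 0.0046). In the 8 miR-7a libraries alone Csf1 had a log2 fold change of 0.63 (adjusted p = 0.03) and a call lost in 5 of 8 fits without a library. Angptl2, a secreted angiopoietin-like protein, was at 57.1, 28.8, 57.5 and 36.9 CPM in VEH and 50.9, 61.6, 63.4 and 57.7 CPM in LPS with miR-7a, and was not called there (log2 fold change 0.26, adjusted p = 0.52). Its mean VEH level was 106.5 CPM with scramble, 104 CPM with miR-29a and 69.2 CPM with miR-146a, against 45.1 CPM with miR-7a, and the LPS levels were 51.8, 41.3, 56.8 and 58.4 CPM in the same order (difference 1.18, SE 0.20, adjusted p = 0.0046). Its 3′ UTR of 1431 bases held an 8-mer site for miR-7a-5p, while Ccnd2 and Ace held a 7-mer site and the other 16 held none. Among those 16 the 3′ UTR of Hist1h2af was read at 1 base, too short for any site. Those of Hist1h2bk, Hist1h3g and Hist1h4a were read at 78, 95 and 154 bases.

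Slc37a2, a sugar phosphate transporter of macrophages, was at 169, 134, 156 and 141 CPM in VEH and 133, 165, 180 and 144 CPM in LPS with miR-7a, without a call (log2 fold change −0.01, adjusted p = 0.99). The ratio of LPS to VEH was 1.04, against 0.44 with scramble, 0.30 with miR-29a and 0.66 with miR-146a (difference 1.22, SE 0.23, adjusted p = 0.013). Cdc42ep2, an effector of the GTPase CDC42, ran the other way at 7.73, 12.01, 6.52 and 8.92 CPM in VEH and 3.29, 3.99, 3.47 and 7.26 CPM in LPS with miR-7a. Its ratio was 0.51, against 1.90, 1.77 and 1.90 with scramble, miR-29a and miR-146a (difference −1.77, SE 0.33, adjusted p = 0.013). Hist1h4a, a histone H4 gene with near-identical copies, was at 310, 1387, 1087 and 587 CPM in VEH and 164, 151, 231 and 128 CPM in LPS with miR-7a. The ratio was 0.20, against 0.94, 0.72 and 0.96 with the other mimics in the same order (difference −2.01, SE 0.37, adjusted p = 0.013). VEH_miR-7a libraries 2, 3 and 4 were above every library of the other mimics for this gene, whose highest was 420.5 CPM in a VEH_miR-29a library, and VEH_miR-7a library 1 was not. The structural RNA share of the same libraries was high too, and its part in this difference was not tested.

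**Figure D5:**
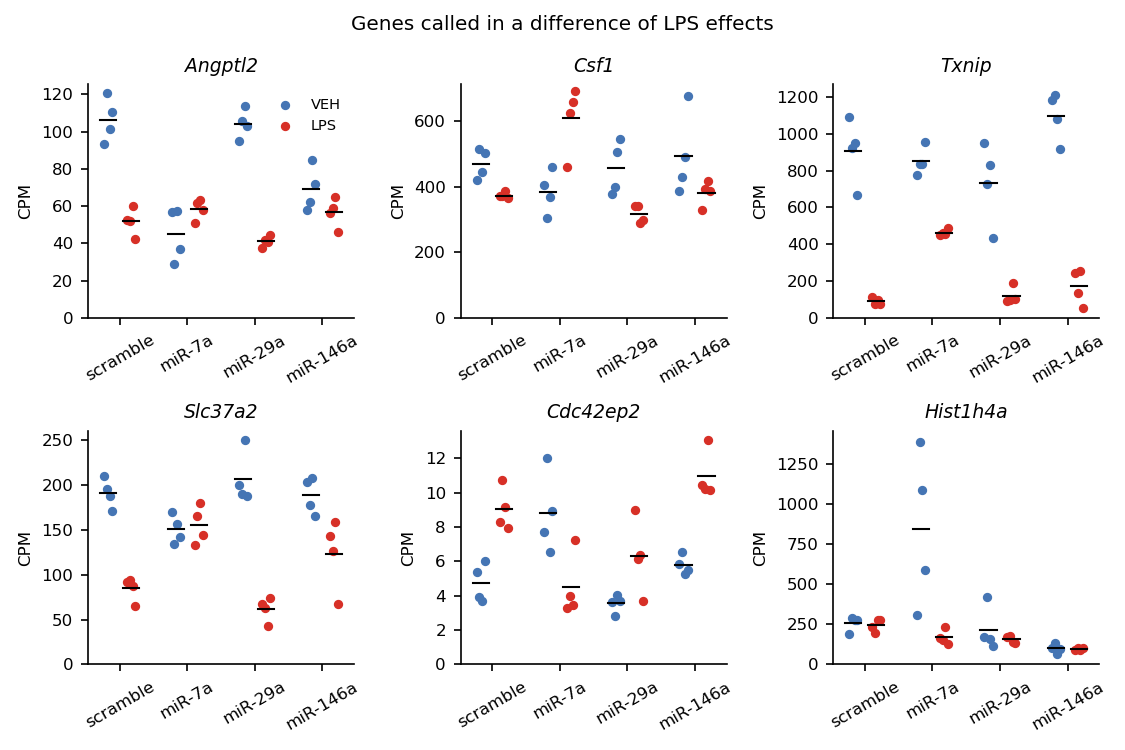
CPM on a linear axis from 0 in all 32 libraries, for the first 6 genes by adjusted p in the interaction against the other 3 mimics, VEH in blue and LPS in red, with a line at the mean of the 4 libraries. With LPS, Txnip has a mean of 463 CPM with miR-7a and reaches at most 252.6 CPM in any library of the other mimics, and the mean of Csf1 is higher with LPS than with vehicle only for miR-7a.

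Brox could not be tested. Its values could be read at either of 2 levels a factor of 10 apart, the lower of them giving 68.1, 69.6, 70.7 and 70.1 CPM in VEH and 75.4, 67.1, 67.6 and 75.5 CPM in LPS. Within that reading the groups overlapped and the ratio of LPS to VEH was 1.03.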

How the data were processed

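Total RNA of BV-2 cells was extracted with TRIzol, depleted of ribosomal RNA and made into CORALL total RNA libraries. Per the study's methods, reads were sequenced on a NextSeq 550 and processed with the nf-core RNA-seq pipeline, and per the submitters' processing notes the build was GRCm38 and limma and edgeR were used. The authors deposited 1 table of estimated counts per gene, 45706 genes in 32 libraries, not normalized. Of these, 98.8% matched GENCODE vM21 by gene identifier. A column of the table that matched no sample was not used.

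The deposited estimated counts had lost their decimal marks, so that a value with 3 decimals stood 1000 times too high. The number of lost decimals was restored per value from the other libraries of the gene, with separate library sizes for small structural RNA genes and for all others. Of 590874 values above 0, 28.6% were read with lost decimals. Genes with a value read at a posterior under 0.9, with 2 possible levels, or with readings that differed between 2 sets and 1 set of library sizes were left out, 2271 genes in all. The restoration was revised after complete passes of the tests had been seen, when misread values came to light, so it was not blind to the results, and the counts of calls fell with each revision, that of the interaction with scramble the most in proportion. No pair of libraries held identical values.

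Restored estimated counts were rounded and tested with limma-voom (limma 3.58.1, edgeR 4.0.16, R 4.3.3) after edgeR's filterByExpr and TMM scaling, with the 8 libraries of the comparison, Benjamini-Hochberg adjustment, and calls at an adjusted p under 0.05 and an absolute log2 fold change over 0.3. CPM are counts per 1e+06 counts of the TMM-scaled library. The interaction of LPS with the mimic was fitted on the 16 miR-7a and scramble libraries and on all 32. The structural RNA share was compared with a two-sided exact permutation test. The design assumed that the table held counts with lost decimal marks. The restoration and the main test were also run on simulated data built from the restored counts, a run that takes the restored levels as given. DESeq2 1.42.0, edgeR's quasi-likelihood test and other settings served as alternatives. Scripts used Python 3.11.15, numpy 2.4.6, pandas 2.3.3, scipy 1.17.1 and matplotlib 3.10.9.

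Genes were named by rule: among called protein-coding genes of at least 10 CPM in the higher group whose groups did not overlap, the 12 largest changes in each direction and the smallest adjusted p in each direction. In each of 29 lists up to 4 called members of smallest adjusted p were named, with Il1b, Tnf, Nos2, Il6, Brox and Txnip always, and up to 6 called genes per interaction. Some genes that the rule selects are not reported here. Other genes named were chosen after their values were seen. The members and lists were chosen with earlier results of these data known. The deposited counts were per gene and strand use in counting is not given in the sources used here, so reads of overlapping and antisense genes cannot be told apart.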

Additional observations from a re-analysis of the deposited data

Results flagged for a closer look

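In 234 sets of 4 libraries (a measure in VEH or in LPS), the gap between the most distant library and its nearest neighbour was divided by the range of the 4, and 16 sets exceeded Dixon's 95% critical value for 4. Chance puts about 1 in 20 sets above it. The structural RNA share of VEH library 1 gave 0.853. LPS library 3 stood apart for Ifit3 (0.884, at 101.5 CPM against 30.15 to 38.4 in the others). VEH library 3 stood apart for Rtp4 (0.897, 4.35 against 1.17 to 1.496) and Gbp9 (0.849, 4.16 against 7.01 to 7.52), and also for Cish (0.847, 40.25 against 21.7 to 24.5) and App (0.89, 188 against 229 to 234).

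LPS library 1 stood apart for Casp4 (0.945, 54.4 against 40.4 to 41.2 CPM), Il1a (0.874, 33.2 against 17.2 to 19.2), Man2b1 (0.85, 167 against 215 to 223), mt-Cytb (0.882, 911 against 290.1 to 363.5) and mt-Nd1 (0.868, 773 against 228 to 299.5). The remaining sets were Klhl30 in LPS library 2 (0.883, 5.98 against 2.05 to 2.51 CPM), Cd274 in VEH library 4 (0.839, 56.1 against 26.2 to 31.0), mt-Nd5 in VEH library 2 (0.939, 2685 against 1780 to 1835), mt-Nd1 in VEH library 4 (0.842, 728 against 1158 to 1239) and Gm20388 in VEH library 1 (1, at 46.0 against 0).

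The LPS effect of some genes differed between mimics by the test of the interaction (limma-voom). Against scramble, Txnip differed by 2.49 on the log2 scale (adjusted p = 9.24e-06). Against the other 3 mimics the differences were 2.075 for Txnip, 1.18 for Angptl2 and 1.06 for Csf1 (adjusted p = 0.00462 each), and 1.22 for Slc37a2, −1.77 for Cdc42ep2 and −2.01 for Hist1h4a (adjusted p = 0.0135 each). Leaving out VEH_miR-7a library 1 raised the number of such genes to 121 against scramble and to 162 against the other 3 mimics.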

How the results depend on the processing

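The 801 calls of LPS against vehicle became 1210 with DESeq2's Wald test, 1404 with the simple rule for lost decimals (615 higher, 789 lower), 265 with the values as deposited (222 higher, 43 lower), 3157 with no TMM scaling (3031 higher, 126 lower) and 7807 with no filter, where 24691 genes were tested and 7043 of the calls were lower. With edgeR's quasi-likelihood test they were 916, and the other settings run on all 8 libraries gave 726 to 1004 apart from the replicate block. Without 1 library they ranged from 483 (VEH library 3) to 935 (LPS library 1), and without VEH library 1 and with structural genes left out, a setting chosen after seeing the data, they were 607. Leaving out libraries moved the interaction calls from 1 to 121 against scramble and from 3 to 162 against the other 3 mimics. Against the other mimics edgeR gave 55 calls, and against scramble a posterior minimum of 0.99 gave 2. The structural share differed by −33.05 to −22.2 points without 1 library, where the smallest p that 3 against 4 allows is 0.0571.

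The main fits did not take the replicate numbers as pairs. Same-number correlations of deviations were 0.0550, 0.0907, 0.157 and 0.230, all positive but not all over 0.1, a limit chosen here. They do not show that libraries of the same number are unpaired, and the study counts n in this cell line as independent experiments. VEH libraries 3 and 4 correlated best with the LPS library of their own number, VEH library 1 with LPS library 2 (0.168) and VEH library 2 with LPS library 1 (0.212). With a replicate block the fit made 1786 calls in place of 801, and the interactions 32 in place of 1 and 133 in place of 19.

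Of 116 genes that the naming rule selected, 90 kept direction and side of the threshold with no TMM scaling. The genes whose sign turned had these log2 fold changes. With values as deposited: Cbr2 4.76, Cytip 2.55, Cish 2.85, Slc7a2 1.56, Itgax 4.02, Igf1 0.96, Txnip 4.04, Eno1 0.43, Ndufb5 1.59, mt-Nd5 1.52, mt-Cytb 2.31, mt-Nd2 3.02, Aars −2.75 and Angptl2 −4.86. With the simple rule: Irg1 −5.60, C3 −5.43, Npc2 −8.81, App −8.57, Aars −8.36, Angptl2 −0.0081 and Slc37a2 0.48. With no TMM scaling: Glb1 0.079, Eno1 0.11 and Slc37a2 0.62. Slc37a2, near 0 in the report, was also at 0.017 with edgeR, 0.016 with DESeq2, 0.018 with limma-trend, 0.037 with no filter, 0.0047 with 1 set of library sizes, 0.025 with all 8 groups, −0.077 to 0.085 without single libraries, above 0 without VEH library 1 or 3 or LPS library 1 or 4, and 0.080 without VEH library 1 and structural genes. Apart from the use of unrestored values, the smaller number of libraries and the larger number of genes tested, the causes were not tested.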
